A study of Homo sapiens with 6 samples.

Results

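The seed family of miR-130, miR-301 and miR-454 is a group of human microRNAs whose guide strands begin with nearly the same bases. Its 8 members in these data were chosen by name from the deposited miRNA table, and they are 8 of the 2588 mature miRNAs listed. They comprise 5 guide strands, hsa-miR-130a-3p, hsa-miR-130b-3p, hsa-miR-301a-3p, hsa-miR-301b-3p and hsa-miR-454-3p, and 3 strands from the opposite arm of their precursors, hsa-miR-130b-5p, hsa-miR-301a-5p and hsa-miR-454-5p. The list was drawn up with earlier results of these data known, so that the members' differences between the groups are given as a description.

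The miRNAs were sequenced in Huh7 cells, a human hepatoma line, after lipofection with a plasmid. In 3 samples the plasmid carried hsa_circ_0098181 (overexpression group) and in 3 samples it was the control plasmid (control group). All were grown in the same serum-containing medium and collected 48 h after transfection. The level of hsa_circ_0098181 and the uptake of the plasmid were not analysed here. The comparison asks which miRNAs differ when the circular RNA is raised.

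A mature miRNA is loaded into an Argonaute protein and represses mRNAs that pair with its seed, the bases near its 5′ end, so that miRNAs with an equal seed can share targets. Members of this family are known to repress PPARG, a nuclear receptor of fat storage. In liver cancer, miR-130b is known from tumour-initiating cells that carry CD133.

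Sequences were matched by name in RefSeq (GRCh38.p14) for 7 of the 8 members, all but hsa-miR-130a-3p. The 4 guide strands below are shown because they carry the seed that defines the family, with bases 2 to 8 in capitals, 5′ to 3′.
hsa-miR-130b-3p: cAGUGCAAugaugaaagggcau
hsa-miR-301a-3p: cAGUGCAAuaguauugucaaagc
hsa-miR-301b-3p: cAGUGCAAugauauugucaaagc
hsa-miR-454-3p: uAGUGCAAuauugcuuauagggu

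The seed AGUGCAA was the same in these 4 and was found in 6 of 2281 listed miRNAs with a sequence (0.263%). The other 2 were hsa-miR-3666 and hsa-miR-4295. Past the seed the strands diverged. hsa-miR-301a-3p and hsa-miR-301b-3p differed at 2 of 23 positions, counted from the 5′ end, and the other pairs differed at 9 to 12 positions. hsa-miR-130b-3p and hsa-miR-301b-3p were equal up to position 12 and first differed at position 13.

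The 3 strands of the opposite arm are shown because their seeds differ from that of the guides and from each other.
hsa-miR-130b-5p: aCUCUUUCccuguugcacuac
hsa-miR-301a-5p: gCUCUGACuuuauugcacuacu
hsa-miR-454-5p: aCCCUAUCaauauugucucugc

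In these strands the letters UUGCACU, which are the reverse complement of the guide seed, began at position 13 of hsa-miR-130b-5p and hsa-miR-301a-5p. They were not among the letters of hsa-miR-454-5p. Of the 2281 listed miRNAs with a sequence, 8 held these letters (0.351%). A pair of abundant miRNAs from other families is shown because their seeds, in capitals, hold most letters of the family's seed at a shifted place.
hsa-miR-148a-3p: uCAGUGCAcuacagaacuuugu
hsa-miR-19b-3p: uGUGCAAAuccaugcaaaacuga

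The precursors lie at 3 places of the genome (GRCh38, GENCODE release 29). MIR130A lies at chr11:57641198-57641286 on the plus strand, in an intron of the non-coding gene AP000662.1. MIR301B at chr22:21652981-21653058 and MIR130B at chr22:21653304-21653385 are 245 bases apart on the plus strand. Both lie in the non-coding gene AP000553.1, MIR301B in an intron and MIR130B overlapping an exon. MIR301A at chr17:59151136-59151221 and MIR454 at chr17:59137758-59137872 are 13263 bases apart on the minus strand. Both lie in introns of SKA2 (chr17:59109951-59155269), which encodes a protein of the spindle and kinetochore.

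Overexpression replicates 1 to 3 held 7978507, 8469016 and 8289232 counts in total, and control replicates 1 to 3 held 10786295, 8677214 and 7144798. Levels are given below as CPM, which are counts brought to a common library size and scaled by edgeR's TMM factors, an adjustment for the composition of a library. A filter on low counts kept 552 miRNAs, and all 8 members passed it. At its lowest count in a sample, the counting error was 0.465% for hsa-miR-130a-3p and 13.2% for hsa-miR-301b-3p, so that the latter is the least precisely measured. Nothing in the labels says that the replicates were separate cultures, so that p-values measure the spread between these samples, which may be technical.

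Control replicate 3 stood apart from the other controls. Over 183 abundant miRNAs, the median absolute log2 difference was 0.055 between control replicates 1 and 2, and 0.20 and 0.21 between them and control replicate 3. Between the overexpression samples it was 0.087 to 0.12, and between these and control replicate 3 it was 0.13 to 0.21. From the overexpression samples to control replicates 1 and 2 it was similar, at 0.13 to 0.19. Control replicate 3 also had the lowest total count. Differences between the groups that rest on it are given with and without it.

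Liver miRNAs were abundant in every library. All 4 hepatocyte miRNAs examined were counted, with a summed level of 367574, 417290 and 389621 CPM in the libraries with hsa_circ_0098181, against 370941, 344654 and 318882 CPM in the control libraries. hsa-miR-122-5p, the main liver miRNA, led them with 281514 CPM (control replicate 3) to 368160 CPM (overexpression replicate 2). The 5 blood cell miRNAs summed to 14.2 to 18.5 CPM, led by hsa-miR-142-3p. The 3 muscle miRNAs summed to 12 to 24 counts, led by hsa-miR-1-3p, and the 4 mesenchymal ones to 117 to 127 CPM, led by hsa-miR-143-3p. The 2 neuronal miRNAs summed to 95.6 to 141 CPM, led by hsa-miR-9-5p. The 2 endothelial miRNAs were more abundant, with 3504 to 4716 CPM, most of it hsa-miR-126-3p. No marker of these lists was at 0 in all 6 samples.

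The family was expressed at very unequal levels. hsa-miR-130a-3p was the most abundant member and ranked 21 among the 552 miRNAs by mean CPM, while hsa-miR-301b-3p of the same family ranked 317. By mean CPM the order was hsa-miR-130a-3p, hsa-miR-454-3p, hsa-miR-130b-3p, hsa-miR-301a-3p, hsa-miR-130b-5p, hsa-miR-454-5p, hsa-miR-301a-5p and hsa-miR-301b-3p. Neighbours in this order kept it in 6 of 6 samples, except that hsa-miR-301a-3p was above hsa-miR-130b-5p in 4 of 6, so that this pair did not differ beyond its spread. The 7 members with a sequence are 21 to 23 bases long and kept the same order per base of length. The ligation and the read assignment were not given in the sources used here, and both can shift one miRNA against another.

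**Figure D1:**
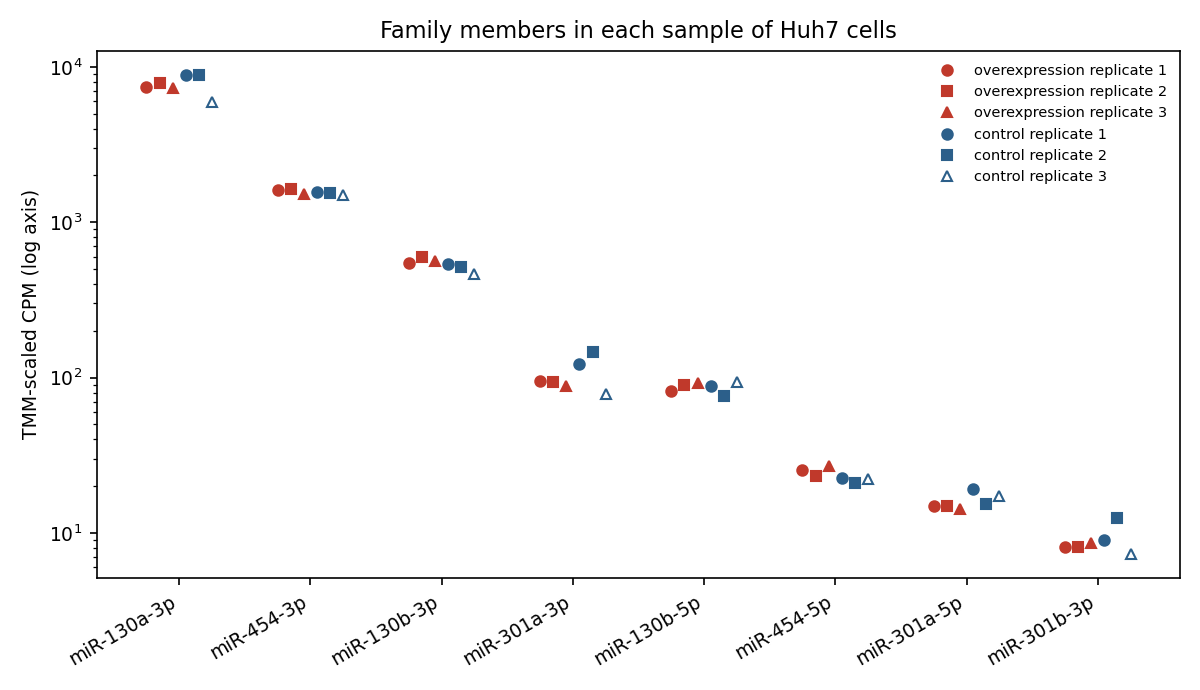
Level of each member in each of the 6 samples, in TMM-scaled CPM on a log axis, with red for the overexpression group and blue for the control group, and control replicate 3 as an open triangle. The members spread from 7.33 CPM (hsa-miR-301b-3p) to 8903 CPM (hsa-miR-130a-3p), and the open triangle is on this scale the lowest of the 6 points for each of the 5 guide strands, as for 23.9% of the 552 miRNAs kept by the filter.

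In replicate order, here and below, hsa-miR-130a-3p measured 7369, 7886 and 7307 CPM in the libraries with hsa_circ_0098181, against 8876, 8903 and 5951 CPM in the control libraries. Control replicates 1 and 2 lay above every overexpression sample and control replicate 3 below every one, so that the groups overlapped. It averaged 7521 ± 318 CPM (SD, n = 3) in the overexpression group, against 7910 ± 1697 CPM (SD, n = 3) in the controls. This strand alone made up 74.3% to 80.0% of the summed guide counts of a sample.

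Its closest relative by name, hsa-miR-130b-3p, measured 549, 595 and 565 CPM in the libraries with hsa_circ_0098181, against 542, 516 and 467 CPM in the control libraries. Here every overexpression sample was above every control sample, by a narrow gap between overexpression replicate 1 and control replicate 1. It averaged 570 ± 23.7 CPM (SD, n = 3) against 508 ± 38.2 CPM (SD, n = 3). The count of hsa-miR-130a-3p was 12.7 to 17.3 times that of hsa-miR-130b-3p.

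The guide strands from the SKA2 introns differed in their spread over the samples. hsa-miR-301a-3p measured 94.7, 93.4 and 88.8 CPM in the libraries with hsa_circ_0098181, against 122, 147 and 78.7 CPM in the control libraries. Again control replicates 1 and 2 were high and control replicate 3 was the lowest of the 6, and the groups overlapped. It averaged 92.3 ± 3.10 CPM (SD, n = 3) against 116 ± 34.5 CPM (SD, n = 3). hsa-miR-454-3p, in contrast, measured 1607, 1636 and 1509 CPM in the libraries with hsa_circ_0098181, against 1568, 1553 and 1504.5 CPM in the control libraries. Its highest sample was 1.09 times its lowest, against 1.86 times for hsa-miR-301a-3p, and its groups overlapped, with overexpression replicate 3 next to the lowest control.

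hsa-miR-301b-3p was scarce, with 57 to 112 counts in a sample. It measured 8.18, 8.08 and 8.61 CPM in the libraries with hsa_circ_0098181, against 9.04, 12.5 and 7.33 CPM in the control libraries. The controls spanned the overexpression samples, with control replicate 2 high and control replicate 3 low. Since it differs from hsa-miR-301a-3p at 2 positions and was 10.3 to 13.5 times less counted, the assignment of reads between the pair is uncertain. How reads that match several miRNAs were treated was not given in the sources used here.

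In control replicate 3 the guide strands were thus not lowered to the same extent. Relative to the mean of control replicates 1 and 2, its log2 level was -0.58 for hsa-miR-130a-3p, -0.77 for hsa-miR-301a-3p and -0.56 for hsa-miR-301b-3p. It was -0.18 for hsa-miR-130b-3p and -0.053 for hsa-miR-454-3p. The opposite strands stood at 0.19 for hsa-miR-130b-5p, 0.014 for hsa-miR-301a-5p and 0.018 for hsa-miR-454-5p, so that none of the 3 was lower there on this scale. In the deposited TPM, which have no TMM factors, control replicate 3 was still the lowest library for hsa-miR-130a-3p, hsa-miR-130b-3p and hsa-miR-301a-3p. For hsa-miR-301b-3p it was then above overexpression replicate 2, and for hsa-miR-454-3p it was the highest, at 1637 TPM. The cause was not tested.

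Among the opposite strands, hsa-miR-130b-5p measured 81.5, 89.0 and 92.1 CPM in the libraries with hsa_circ_0098181, against 88.7, 76.0 and 94.1 CPM in the control libraries. These groups overlapped, with the lowest and the highest sample both in the control group. hsa-miR-301a-5p measured 15.0, 14.9 and 14.3 CPM in the libraries with hsa_circ_0098181, against 19.1, 15.3 and 17.4 CPM in the control libraries. All overexpression samples were below all control samples, and control replicate 2 came nearest to them. hsa-miR-454-5p measured 25.5, 23.2 and 26.8 CPM in the libraries with hsa_circ_0098181, against 22.7, 21.0 and 22.1 CPM in the control libraries. All overexpression samples were above all control samples, with overexpression replicate 2 and control replicate 1 lying close together, and in the deposited TPM the groups overlapped.

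The remaining products of these precursors and seeds were near or at 0. hsa-miR-301b-5p had 6 to 17 counts in a sample, or 0.670 to 1.57 CPM. hsa-miR-130a-5p, hsa-miR-3666 and hsa-miR-4295 had 0 counts in all 6 samples. A count of 0 allows up to 3 counts, which is 0.278 to 0.420 CPM before the TMM factors and covers counting error alone.

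Strands with an equal seed can pair with the same sites, so that their levels were also summed. Summed over the 5 guide strands, the level reached 9628, 10219 and 9478 CPM in the libraries with hsa_circ_0098181, against 11118, 11131 and 8008 CPM in the control libraries. Control replicates 1 and 2 were above and control replicate 3 below all overexpression samples. The sum averaged 9775 ± 391 CPM (SD, n = 3) in the overexpression group, against 10086 ± 1799 CPM (SD, n = 3) in the controls, a difference of -311 CPM, smaller than the spread between the controls. Without control replicate 3 the control mean was 11124 ± 9.83 CPM (SD, n = 2), above each overexpression sample. The difference was then -1465 CPM, but without control replicate 1 or 2 it was above 0, at 117 and 163 CPM. With the library size alone it was -1066 CPM.

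hsa-miR-130a-3p led the mix of guides in every sample. hsa-miR-454-3p gave 13.95% to 18.8% of the summed guide counts and hsa-miR-130b-3p 4.64% to 5.97%. hsa-miR-301a-3p gave 0.914% to 1.32% and hsa-miR-301b-3p 0.0791% to 0.112%. The highest share of hsa-miR-454-3p and the lowest of hsa-miR-130a-3p were both in control replicate 3.

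**Figure D2:**
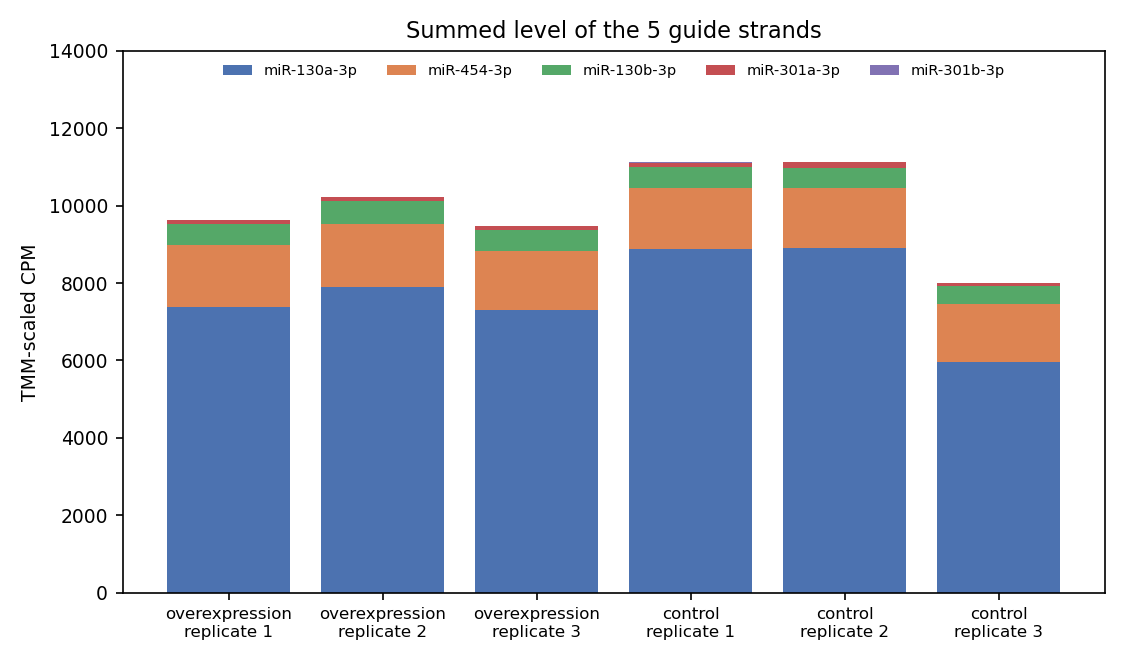
Summed level of the 5 guide strands in each sample, in TMM-scaled CPM from 0, with each bar divided by strand. Control replicates 1 and 2 reach 11118 and 11131 CPM, the overexpression samples 9478 to 10219 CPM and control replicate 3 8008 CPM, and hsa-miR-130a-3p fills most of each bar.

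Between the groups, no member passed the threshold in the comparison of all 6 samples. In edgeR's quasi-likelihood test, 0 of the 552 miRNAs had an adjusted p under 0.05 (0%), and 0 of the 8 members did. At an unadjusted p under 0.05 there were 50 miRNAs by edgeR, with 0 members among them, and 41 by DESeq2, which also gave 0 after adjustment. The 41 held 1 member, hsa-miR-301a-3p. In edgeR it was also among 44 of 552 miRNAs under that unadjusted limit with upper-quartile factors and among 68 of 1366 without a filter. With the library size alone, hsa-miR-301a-3p and hsa-miR-301a-5p were among 70 of 552. No member was under that limit with limma (52 miRNAs), a filter of 10 counts in every sample (47) or the replicate number as a block (42). Nor was any in the fits with a sample left out, other than that without control replicate 3. hsa-miR-301a-3p had the largest difference of the members, with a log2 fold change of -0.33 (95% confidence interval -0.71 to 0.045, SE, the standard error, 0.17, edgeR adjusted p = 0.568). For hsa-miR-130a-3p it was -0.073 (95% confidence interval -0.34 to 0.20, SE 0.12, edgeR adjusted p = 0.818). In bulk RNA, fewer cells with a miRNA and less of it per cell cannot be told apart.

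The members did not share a direction. With TMM factors 4 of the 8 had a log2 fold change under 0, as did 49.1% of all miRNAs tested, and with the library size alone 6 of the 8 did, since hsa-miR-454-3p and hsa-miR-130b-5p then moved to the other side of 0. That scaling moved the median of all miRNAs tested from 0.0038 to -0.11. Relative to these medians, hsa-miR-454-3p was at 0.035 under either scaling and hsa-miR-130b-5p at 0.018 and 0.016. The 6 of 8 therefore cannot be set against the 49.1%, which was counted with TMM factors. The median of the 5 guide strands, which is the value of hsa-miR-130a-3p, was -0.073, or -0.077 relative to all miRNAs tested, which became -0.070 without TMM factors.

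Those above 0 with TMM factors had intervals that reached below it. hsa-miR-130b-3p had a log2 fold change of 0.16 (SE 0.096, edgeR adjusted p = 0.598) and hsa-miR-454-5p one of 0.20 (SE 0.12, edgeR adjusted p = 0.598). With the library size alone they were at 0.051 and 0.087, or 0.16 and 0.20 relative to the median of all miRNAs tested. For hsa-miR-454-3p the interval was -0.14 to 0.22, the narrowest of the 8, around 0.039, and hsa-miR-130b-5p had 0.022. hsa-miR-301a-5p had -0.23 (SE 0.14, edgeR adjusted p = 0.598), and hsa-miR-301b-3p had -0.22 (SE 0.20, edgeR adjusted p = 0.698). The groups did not overlap for hsa-miR-301a-5p (lower), which was so for 6.52% of the 552 miRNAs. Nor did they for hsa-miR-130b-3p and hsa-miR-454-5p (higher), which was so for 8.88%.

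Without control replicate 3, the picture for hsa-miR-130a-3p and hsa-miR-301a-3p changed. That fit set 3 overexpression samples against 2 controls, which were the closest pair of all samples (median absolute log2 difference 0.055). The spread of the controls was therefore small in it. It is set out here because control replicate 3 stood apart in these same data. The log2 fold change of hsa-miR-301a-3p became -0.56 (95% confidence interval -0.76 to -0.36, SE 0.099, edgeR adjusted p = 4.15e-05). That of hsa-miR-130a-3p became -0.26 (95% confidence interval -0.38 to -0.14, SE 0.061, edgeR adjusted p = 0.00194). Leaving out control replicate 2 instead had the opposite effect, with -0.13 for hsa-miR-301a-3p, 0.013 for hsa-miR-130a-3p and -0.00032 for hsa-miR-301b-3p. Without control replicate 1, hsa-miR-130a-3p was at 0.0043. Those without control replicate 3 were 2 of the 8 members under the threshold, both lower with hsa_circ_0098181, among 565 miRNAs of which 9.91% were called and 6.73% were called lower. Over all alternatives the adjusted p ranged from 4.15e-05 to 0.865 for hsa-miR-301a-3p and from 0.00194 to 0.999 for hsa-miR-130a-3p.

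The other 6 members stayed above the threshold without that library. hsa-miR-301b-3p had a log2 fold change of -0.38 (edgeR adjusted p = 0.218) and hsa-miR-454-3p one of 0.0026 (edgeR adjusted p = 0.994). Those of hsa-miR-130b-3p and hsa-miR-130b-5p were 0.088 and 0.068, and those of hsa-miR-301a-5p and hsa-miR-454-5p were -0.25 and 0.19. Over all alternatives the adjusted p of these 6 was never below 0.218. The groups of the remaining 5 samples did not overlap, with the overexpression samples lower, for hsa-miR-130a-3p, hsa-miR-301a-3p, hsa-miR-301b-3p and hsa-miR-301a-5p, as for 18.9% of the 565 miRNAs. Nor did they for hsa-miR-130b-3p and hsa-miR-454-5p, with the overexpression samples higher, as for 19.3%. The number of members under 0 was again 4 of 8, and 50.3% of the 565 miRNAs were under 0. The median of the guide strands was -0.26, against -0.0013 over all miRNAs tested.

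**Figure D3:**
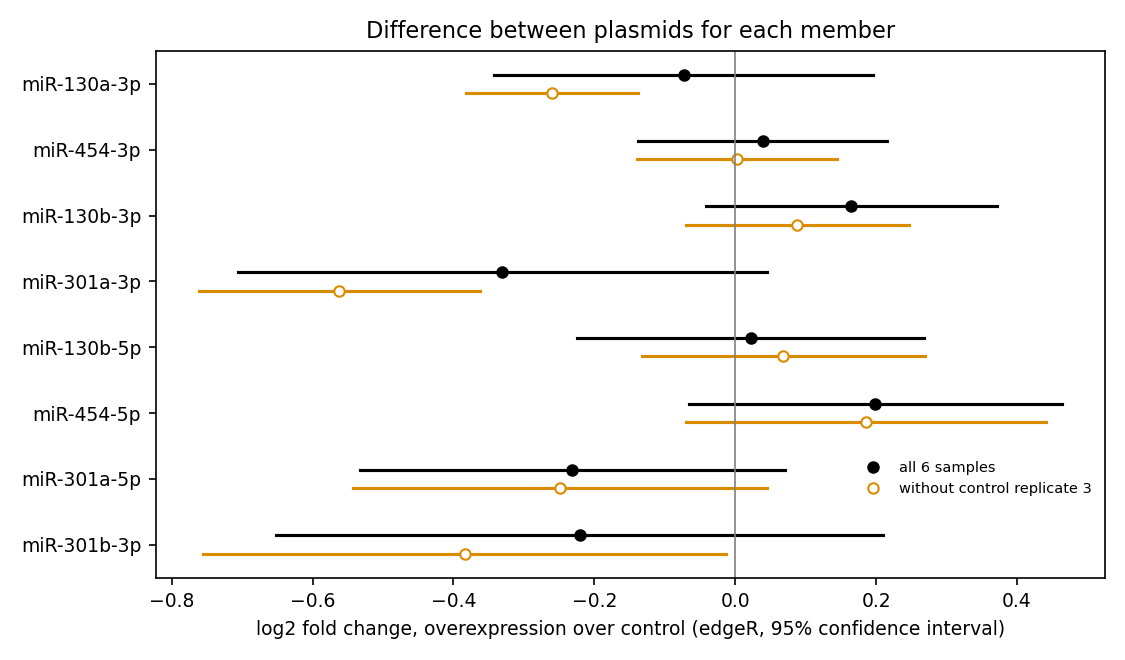
Log2 fold change of each member, overexpression over control, from edgeR with 95% confidence intervals, for all 6 samples (black, filled) and without control replicate 3 (orange, open). With 6 samples every interval includes 0, and without that library those of hsa-miR-130a-3p, hsa-miR-301a-3p and hsa-miR-301b-3p lie below 0, the last with an adjusted p of 0.218 from edgeR.

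Ratios within a library do not depend on its scaling, and 7 were compared. Between the arms of a precursor, the guide was the more abundant strand in every sample. hsa-miR-454-3p was counted 56.1 to 73.8 times as often as hsa-miR-454-5p. hsa-miR-130b-3p was counted 4.96 to 6.79 times as often as hsa-miR-130b-5p, and hsa-miR-301a-3p 4.52 to 9.56 times as often as hsa-miR-301a-5p. The miR-454 precursor thus had the most one-sided arms of these 3.

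The log2 ratio of hsa-miR-301a-3p to hsa-miR-301a-5p took the values 2.66, 2.64 and 2.62 with hsa_circ_0098181, against 2.68, 3.26 and 2.18 with the control plasmid. The overexpression samples were nearly equal, while the controls lay on both sides of them. Their difference of -0.061 was within this spread (two-sided exact permutation test, p = 0.7, adjusted p = 0.7 over the 7 ratios), and it was -0.32 without control replicate 3 and 0.22 without control replicate 2. The ratio of the miR-130b arms differed by 0.14, with overlapping groups, by 0.016 without control replicate 3 and by 0.24 without control replicate 2. That of the miR-454 arms differed by -0.16, and by -0.24 to -0.078 with a sample left out, also with overlapping groups in the 6 samples.

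Ratios between products of neighbouring precursors varied between samples. How much of this was counting error or read assignment was not tested. The log2 ratio of hsa-miR-301a-3p to hsa-miR-454-3p took the values -4.08, -4.13 and -4.09 with hsa_circ_0098181, against -3.68, -3.40 and -4.25 with the control plasmid. Control replicate 3 was again on the far side of the overexpression samples, and the difference of -0.32 (-0.56 without that library and -0.13 without control replicate 2) had a p of 0.4 by the exact permutation test. The log2 ratio of hsa-miR-301b-3p to hsa-miR-130b-3p took the values -6.06, -6.19 and -6.03 with hsa_circ_0098181, against -5.90, -5.36 and -5.98 with the control plasmid. All overexpression samples were below all control samples, with control replicate 3 next to them. The difference was -0.35, or -0.46 without control replicate 3 and -0.15 without control replicate 2, at a p of 0.1 by the exact permutation test, the smallest that 3 samples against 3 can give, and 0.56 after adjustment over the 7 ratios.

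Between paralogues the log2 ratio of hsa-miR-130a-3p to hsa-miR-130b-3p took the values 3.75, 3.73 and 3.69 with hsa_circ_0098181, against 4.03, 4.11 and 3.67 with the control plasmid. Control replicates 1 and 2 were high and control replicate 3 was just below the overexpression samples, with a difference of -0.22 between the groups and -0.35 without that library, or -0.13 without control replicate 2. The ratio of hsa-miR-301a-3p to hsa-miR-301b-3p differed by -0.10, with control replicate 3 among the overexpression samples. It differed by -0.18 without control replicate 3, by -0.11 without control replicate 2 and by -0.012 without control replicate 1. Without control replicate 3 the overexpression samples were below the remaining controls in 5 of the 7 ratios, all but those of the miR-130b arms and the miR-454 arms. These ratios share strands, among them hsa-miR-301a-3p, hsa-miR-301b-3p and hsa-miR-130b-3p, so that they are not separate observations. The share over other pairs of miRNAs was not computed. None of the 7 ratios had an adjusted p below 0.56 in the exact permutation test.

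**Figure D4:**
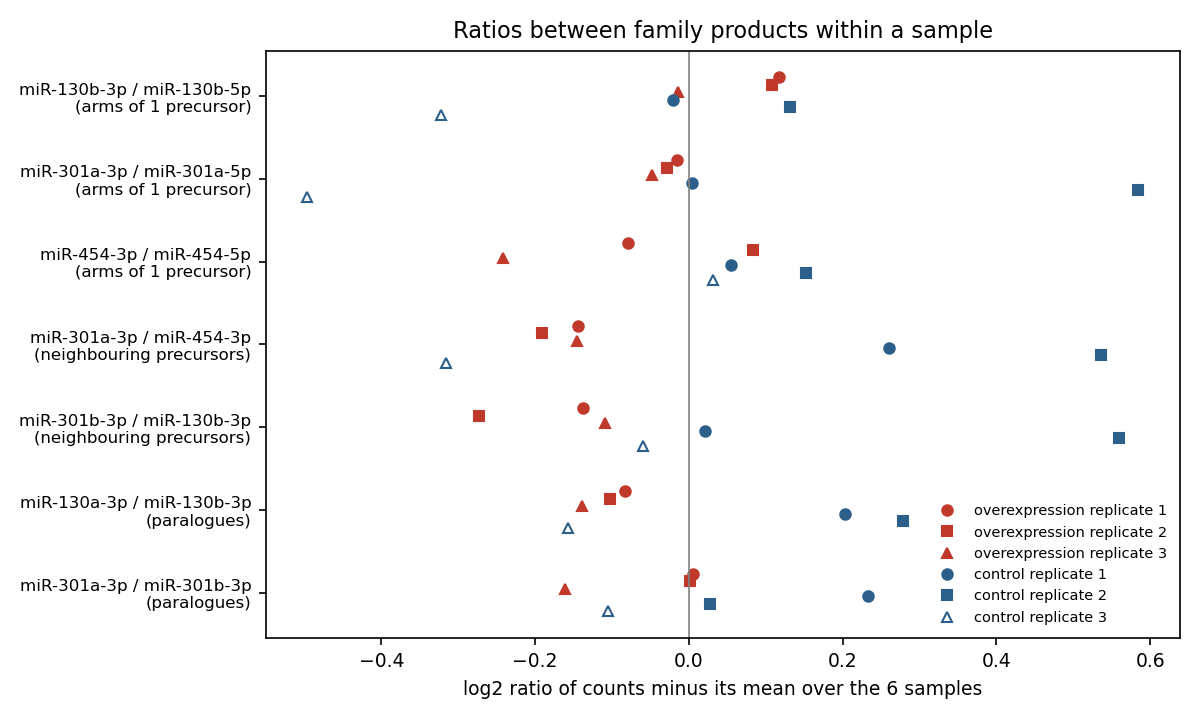
Log2 ratio of counts for 7 pairs of family products in each sample, minus the mean of that ratio over the 6 samples, with red for the overexpression group, blue for the control group and an open triangle for control replicate 3. The controls spread more widely than the overexpression samples in 6 of the 7 ratios, the exception being the miR-454 arms, and the groups are apart for hsa-miR-301b-3p over hsa-miR-130b-3p alone.

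MicroRNAs with a shifted version of the seed were examined beside the family. hsa-miR-148a-3p measured 56407, 54639 and 51611 CPM in the libraries with hsa_circ_0098181, against 62384, 61618 and 52103 CPM in the control libraries. Its control replicate 3 lay among the overexpression samples, and the log2 fold change was -0.11 with 6 samples and -0.21 without that library (adjusted p = 0.617 and 0.00658 from edgeR). hsa-miR-148b-3p and hsa-miR-152-3p, which carry the same shifted seed, had -0.026 and 0.096 with 6 samples. Without control replicate 3 they had -0.11, in the direction of hsa-miR-148a-3p, and 0.0019 (adjusted p = 0.350 and 0.996 from edgeR). Both miRNAs with the seed GUGCAAA were lower without that library, hsa-miR-19b-3p at -0.36 (edgeR adjusted p = 2.35e-05) and hsa-miR-19a-3p at -0.62 (edgeR adjusted p = 7.13e-09). With all 6 samples they were at -0.12 and -0.30 (edgeR adjusted p = 0.799 and 0.653). These 5 miRNAs were named for their seeds with earlier results known, and the share called lower among all 565 miRNAs without that library was 6.73%. Strands outside these seeds were also called lower without that library. Among them were hsa-miR-17-5p at -0.44 and hsa-miR-20a-5p at -0.22 (edgeR adjusted p = 9.01e-06 and 0.0103). Of the 565 miRNAs, 3.19% were called higher. A relation to the seed was not tested. The other miRNAs with the letters AGUGCA near the 5′ end, hsa-miR-504-3p, hsa-miR-4671-3p and the 3p strands of miR-519a, miR-519b and miR-519c, did not pass the filter on low counts in the 6 samples.

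Outside the family, miRNAs were ranked by how closely their levels followed the summed guides over the 6 samples. By the mean absolute difference of centred log2 levels the closest 5 were hsa-miR-548x-3p (0.038), hsa-miR-374b-3p (0.045), hsa-miR-582-3p (0.047), hsa-miR-548n (0.058) and hsa-miR-34a-5p (0.059), against a median of 0.21 over all tested. Control replicate 3 was the lowest sample of all 5, which the ranking favours, since the summed guides were lowest there too. Without control replicate 3, an alternative chosen after seeing the data, hsa-miR-582-3p and hsa-miR-548x-3p ranked 2 and 4 of 544, and the other 3 ranked 14 to 16. hsa-miR-34a-5p, a miRNA induced by p53, was the most abundant of them with a mean of 5009 CPM, and hsa-miR-548n the scarcest with 5.32 CPM.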

How the data were processed

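Mature miRNAs were measured in 6 samples, grouped by their labels into 3 with hsa_circ_0098181 and 3 with the control plasmid. The authors deposited counts of reads per mature miRNA, not normalized, and TPM values, which equal counts scaled by the total of the sample and were not tested. The submitters' processing notes name TopHat2 2.0.9, Bowtie, TopHat and hg38. The miRNA annotation, the trimming and the handling of reads matching several miRNAs are not given in the sources used here, and reads assigned otherwise would change similar strands most. The members and lists were chosen with earlier results of these data known. The miRNAs named were the members, their other arms, miRNAs with the same or a neighbouring seed, the marker lists, the 5 most alike in level, the most abundant and those holding the reverse complement of the seed, picked after their values were seen.

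R 4.3.3 and edgeR 4.0.16 were used, with filterByExpr (minimum count 10, minimum total 15), TMM factors and the two-sided quasi-likelihood test, with Benjamini-Hochberg adjustment over all 552 miRNAs kept and a threshold of 0.05. The median total was 8379124 counts. Ratios were taken after adding 0.5 to each count and compared by exact permutation tests. The seed was read from the 4 guide strands with a sequence. Alternatives were library size alone, no filter, upper-quartile factors, DESeq2 1.42.0, limma 3.58.1 on log2 CPM (1 added), a filter of 10 counts in every sample, the replicate number as a block, 5 added to counts for ratios, and fits without each sample. The scripts were tested on simulated data.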

Additional observations from a re-analysis of the deposited data

How the results depend on the processing

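The count of miRNAs with an adjusted p under 0.05 from edgeR, 0 with all 6 samples, was 3 with the library size alone, 6 without a filter and 0 to 56 with a sample left out, the 56 being without control replicate 3. Members called were 0 to 2 with a sample left out, the 2 (hsa-miR-130a-3p and hsa-miR-301a-3p) also without control replicate 3, and 0 in the other alternatives. The median of the 5 guide strands, which is the value of hsa-miR-130a-3p, ranged from -0.26 without control replicate 3 to 0.013 without control replicate 2, and was 0.0043 without control replicate 1. With the library size alone, hsa-miR-454-3p was at -0.076 and hsa-miR-130b-5p at -0.096, a move shared by the median of all miRNAs. With a sample left out, hsa-miR-130b-5p ranged from -0.067 to 0.068, and the difference in the log2 ratio of hsa-miR-301a-3p to hsa-miR-301a-5p from -0.32 to 0.22. The summed guide level differed by -1465 to 163 CPM over its alternatives, against -311 CPM with all 6 samples. Of the 104 member values, 96 kept their direction and side of the threshold, 6 reversed and 2 came under the threshold. Apart from the scaling, the cause was not tested.

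Replicate numbers did not show a pairing of samples. Deviations of same-numbered samples correlated at -0.097, 0.15 and 0.20 over 183 miRNAs. With the replicate block, 0 miRNAs were called by edgeR (42 unadjusted, against 50), the guide median was -0.050 and 4 members were under 0, so that it changed no call. For the ratios, an exact sign-flip test over the 3 pairs gave p of 0.25 to 0.75, with 0.25 for hsa-miR-301b-3p to hsa-miR-130b-3p, against 0.1 unpaired. The smallest p that 3 pairs can give is 0.25.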

Other observations

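Outside the family, 6 listed miRNAs hold the letters UUGCACU, and 3 of them passed the filter on low counts. hsa-miR-25-3p averaged 32344 ± 1708 CPM (SD, n = 3) with hsa_circ_0098181 against 27595 ± 883 CPM (SD, n = 3) in the controls, with a log2 fold change of 0.23 (edgeR adjusted p = 0.306) and 0.24 without control replicate 3 (edgeR adjusted p = 0.00306). hsa-miR-92a-3p had 0.24 (edgeR adjusted p = 0.421), and 0.32 without that library (edgeR adjusted p = 0.000136). hsa-miR-92b-3p had 0.18 (edgeR adjusted p = 0.715), and 0.26 without it (edgeR adjusted p = 0.476). Of all 565 miRNAs tested without that library, 3.19% were called higher. The 3 were listed by their letters after the earlier values were known, and no relation to the family was tested.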
